A study of Homo sapiens with 6 samples.

Results

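The genes described here are the transcriptional coactivators YAP (YAP1) and TAZ (WWTR1), their DNA-binding partners TEAD1 and TEAD4, and 6 widely used target genes of this complex: CTGF (now CCN2), CYR61 (now CCN1), ANKRD1, AMOTL2, LATS2 and AJUBA. They were chosen by name, with earlier results of these data known, and all 10 were present among the 41471 gene symbols of the CDK16 knockdown table and the 34157 symbols of the rebastinib table. mRNA was sequenced in bulk from MDA-MB-231 cells, a human line derived from a breast cancer of the triple-negative kind. In the knockdown experiment the cells stably carried a lentiviral scramble shRNA, CDK16-sh1 or CDK16-sh2, hairpin RNAs against the kinase CDK16 expressed from a GFP vector, and the lines were made by sorting infected cells. In the second experiment the cells received the vehicle DMSO, or rebastinib (Reb), an inhibitor of CDK16 and of other kinases, at 1 µM or 5 µM for 48 h. Each of the 6 conditions had 1 library, so no difference below has a replicate check and intervals cover counting error only.

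In the Hippo pathway the kinases MST1/2 and LATS1/2 phosphorylate YAP and TAZ, which keeps them in the cytoplasm or leads to their degradation. When the kinases are less active, YAP and TAZ enter the nucleus, bind TEAD factors and raise the transcription of genes such as CTGF, CYR61 and ANKRD1, often together with AP-1. LATS2, AMOTL2 and AJUBA are both targets and regulators of the pathway, so that they take part in its feedback. YAP and TAZ are regulated largely at the protein level, which mRNA counts do not measure, and both are active in many basal-like breast cancer lines.

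Promoter sequences show where the letters bound by TEAD occur near these genes. RefSeq windows on GRCh38.p14, from 250 bases before to 50 after a start site, were given for 7 of the 10 genes, as 10 windows (WWTR1, AMOTL2 and AJUBA had more than 1 each). CYR61, TEAD1 and TEAD4 had none. The TEAD core, GGAATG on either strand, was found in the windows of 6 of the 7 genes (YAP1, CTGF, ANKRD1, AMOTL2, LATS2 and AJUBA) and in 6 of the 10 windows. Of all 35116 RefSeq windows, 14% held it. CTGF held it 3 times, a number reached in 0.128% of all windows. Its 250 bases upstream of the start site are shown because CTGF is the most used readout of YAP and TAZ, with the 3 matches in capitals.
CTGF, chr6:131951373-131951622, minus strand: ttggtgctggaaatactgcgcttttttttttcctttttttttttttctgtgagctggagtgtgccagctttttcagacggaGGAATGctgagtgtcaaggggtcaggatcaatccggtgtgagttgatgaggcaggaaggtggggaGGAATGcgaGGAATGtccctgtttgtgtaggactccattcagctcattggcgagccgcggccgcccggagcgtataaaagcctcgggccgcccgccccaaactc
Counted from the first transcribed base as +1, these matches began at -169, -104 and -95, all upstream of the CTGF gene span in GENCODE 29.

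For the other genes the 30 bases around each match are shown, with the match in capitals, so that its flanks can be compared with those in CTGF.
YAP1, chr11:102110273-102110302, plus strand: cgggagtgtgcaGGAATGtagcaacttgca
ANKRD1, chr10:90921290-90921319, minus strand: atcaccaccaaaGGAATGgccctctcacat
ANKRD1, chr10:90921198-90921227, minus strand: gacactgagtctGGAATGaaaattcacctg
AMOTL2, chr3:134374499-134374528, minus strand: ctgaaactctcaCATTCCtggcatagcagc
LATS2, chr13:21061560-21061589, minus strand: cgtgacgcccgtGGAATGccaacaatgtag
AJUBA, chr14:22976884-22976913, minus strand: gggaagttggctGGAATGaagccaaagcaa
The matches began at -162 in YAP1, -220 and -128 in ANKRD1, -69 in AMOTL2, +10 in LATS2 and -59 in AJUBA. In AMOTL2 the core lay on the opposite strand and reads CATTCC. The YAP1 match, the LATS2 match and the ANKRD1 match at -220 lay upstream of the GENCODE gene spans, and those of AMOTL2, AJUBA and ANKRD1 at -128 lay in exons outside the coding sequence. The AP-1 site TGANTCA, which reads the same on both strands apart from N, was found in 1 of the 7 genes, ANKRD1, from -195, and in 7.71% of all windows. It overlapped no TEAD core. A match describes letters only and does not show binding.

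**Figure D1:**
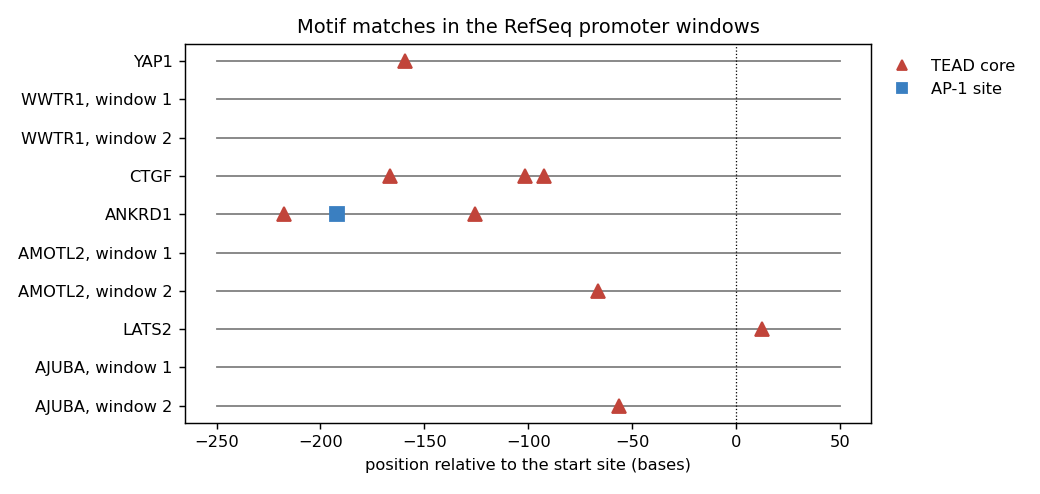
Positions of the TEAD core (triangles) and the AP-1 site (square) in the 10 RefSeq promoter windows, each drawn as a line from 250 bases before to 50 after the start site. CTGF carries 3 TEAD cores, ANKRD1 2, and YAP1, AMOTL2, LATS2 and AJUBA 1 each, and both WWTR1 windows carry none.

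Total counts were 25838443 to 31955119 in the knockdown libraries and 37655548 to 50303269 in the Reb libraries. CDK16 itself had 3223 counts with scramble, 1360 with CDK16-sh1 and 846 with CDK16-sh2, log2 fold changes of -1.52 and -1.82, and with Reb it differed from DMSO by -0.14 and 0.27 with TMM scaling (explained below), of which the second turned to -0.42 with library totals. The marker of mesenchymal cells VIM was high in all libraries (177 to 833 RPKM), and CDH1, ESR1, PGR and PTPRC were near 0 (at most 0.174 RPKM). The highest values of these 4 in the Reb experiment were all in the 1 µM library, with 53, 12, 16 and 35 counts, and their part in the values below was not tested. EPCAM stood at 1.55 to 4.30 RPKM and ERBB2 at 2.56 to 6.54 RPKM. Transcripts of the mitochondrial genome took 16.2% of counts with CDK16-sh2 and 16.4% with 5 µM, against 7.19% to 11.3% in the other 4 libraries. In bulk RNA, fewer cells that express a gene and less RNA per cell cannot be told apart.

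Per length, the classical target genes were among the most abundant mRNAs of these cells. With scramble, CYR61 stood at 398 RPKM, ANKRD1 at 321 and CTGF at 150, at or above the 98.1 percentile of genes tested. AMOTL2 (43.7 RPKM), AJUBA (36.8) and YAP1 (21.2) followed. TEAD4 (10.0) and TEAD1 (9.80) did not differ beyond their counting intervals, nor did LATS2 (6.56) and WWTR1 (6.29). With DMSO, ANKRD1 led at 414 RPKM, before CYR61 at 351 and CTGF at 213, then AMOTL2 (25.8), AJUBA (24.2), YAP1 (17.9), TEAD4 (8.26), WWTR1 (6.22), TEAD1 (5.66) and LATS2 (3.65), and no neighbours overlapped in their counting intervals.

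The order differed most in the library with 5 µM. There ANKRD1 stood at 78.3 RPKM, CTGF at 69.9 and CYR61 at 57.4, and YAP1 was next at 14.0. LATS2, last with DMSO, came next at 6.06 RPKM, above AJUBA (4.81), AMOTL2 (3.93), TEAD1 (3.26), TEAD4 (3.14, overlapping TEAD1) and WWTR1 (2.49). CTGF, CYR61 and ANKRD1 together took 0.218% of all counts with DMSO, 0.146% with 1 µM and 0.0459% with 5 µM. In the knockdown experiment they took 0.196% with scramble, 0.274% with CDK16-sh1 and 0.120% with CDK16-sh2, so this share was above the control with one hairpin and below it with the other. These are shares of library totals. Scaling by totals instead of TMM moved the median log2 fold change of all genes by -0.68 at 5 µM and -0.19 with CDK16-sh2.

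**Figure D2:**
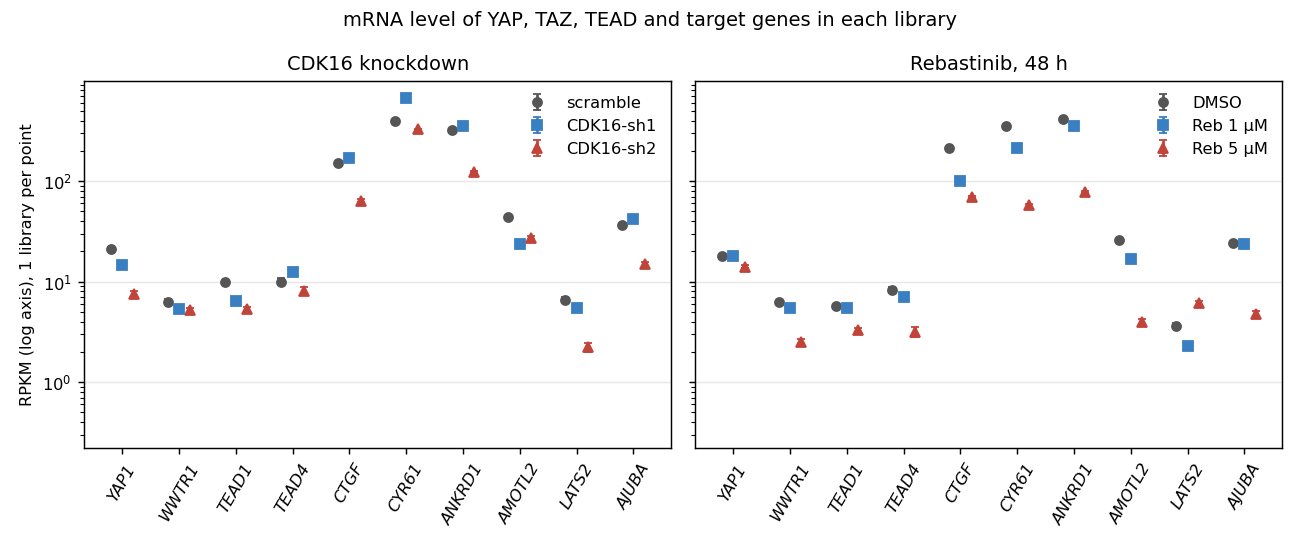
RPKM (log axis) of the 10 genes in each of the 6 libraries, 1 point per library, with 95% counting intervals. CTGF, CYR61 and ANKRD1 lie highest in every library, and with 5 µM Reb LATS2 stands above its DMSO level while AMOTL2 and AJUBA stand far below theirs.

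Counts were scaled with TMM (a factor that makes the bulk of genes equal between libraries) and compared as log2 fold changes, and a gene was counted as past 2-fold from 1 or -1 on. All 10 genes passed the filter, a mean of 1 CPM (counts scaled to a common library size). With CDK16-sh1, 0 of the 10 genes were past 2-fold in either direction, against 6.86% of all genes tested that were lower and 4.33% that were higher. With CDK16-sh2, 5 were at least 2-fold lower (YAP1, CTGF, ANKRD1, LATS2 and AJUBA) and 0 higher, where 7.62% of all genes were lower and 2.2% higher. With 1 µM Reb, CTGF was the 1 gene past 2-fold lower and 0 were higher, against 1.92% and 1.28% of all genes. With 5 µM, 4 were at least 2-fold lower (CYR61, ANKRD1, AMOTL2 and AJUBA) and LATS2 was higher, but 27.2% of all genes were lower and 23.6% higher, so that 4 of 10 stood nearer to the background than 5 of 10 did with CDK16-sh2. The median log2 fold change of the 10 genes was -0.02 with CDK16-sh1, -0.86 with CDK16-sh2, -0.28 with 1 µM and -0.81 with 5 µM, and that of all genes tested was 0.00, 0.02, 0.00 and -0.07.

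**Figure D3:**
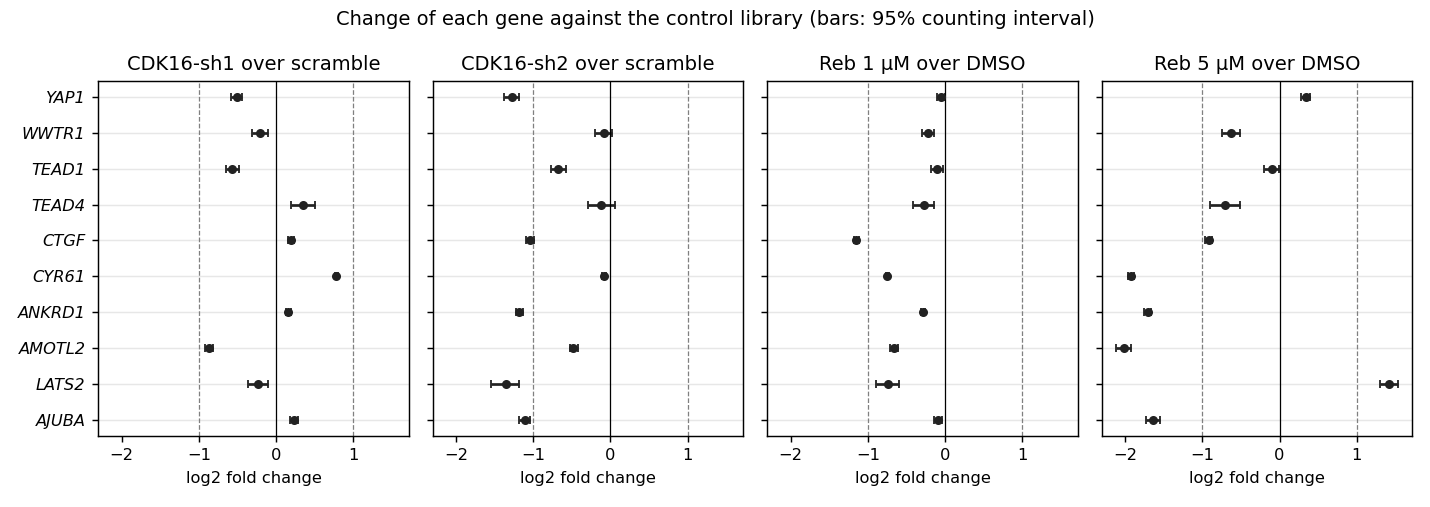
Log2 fold change of each gene in the 4 treated libraries against the own control, with 95% counting intervals, and dashed lines at 2-fold. The genes lie on both sides of 0 with CDK16-sh1, from -0.87 to 0.78, and at or below -0.09 with CDK16-sh2 (where WWTR1 turns to 0.06 without the GC trend), and with 5 µM Reb they range from -2.02 for AMOTL2 to 1.42 for LATS2.

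YAP1 (chr11:102110461-102233423, plus strand), which encodes the coactivator YAP, was lowest with CDK16-sh2. Its scaled level was 126 CPM with scramble, 89.0 with CDK16-sh1 and 51.9 with CDK16-sh2. The log2 fold changes were -0.51 (95% counting interval -0.58 to -0.44) and -1.28 (-1.38 to -1.19), so both hairpin libraries lay below scramble, and 4.35% of all genes tested lay at or below the value of CDK16-sh2. After a trend on GC content was removed, the log2 fold changes were -0.27 with CDK16-sh1 and -1.18 with CDK16-sh2. In the Reb experiment YAP1 stood at 97.4 CPM with DMSO, 94.0 with 1 µM and 123 with 5 µM. The log2 fold change with 5 µM was 0.34 (0.28 to 0.40) with TMM scaling and -0.35 when counts were scaled by library totals, so that its direction depended on the scaling, and that with 1 µM, -0.05, turned to 0.02 with totals without mitochondrial transcripts.

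WWTR1 (chr3:149517235-149736714, minus strand), which encodes TAZ, varied less in the knockdown experiment. It stood at 50.2 CPM with scramble, 43.5 with CDK16-sh1 and 47.2 with CDK16-sh2, log2 fold changes of -0.21 (-0.31 to -0.10) and -0.09 (-0.20 to 0.02), of which both turned above 0 (0.13 and 0.06) after a trend on GC content was removed. With Reb its level was 45.1 CPM in DMSO, 38.7 at 1 µM and 29.2 at 5 µM, log2 fold changes of -0.22 (-0.30 to -0.14) and -0.63 (-0.74 to -0.51), so WWTR1 was below DMSO at both doses. The ratio of YAP1 to WWTR1 within a library needs no scaling. In RPKM it was 3.36 with scramble, 2.73 with CDK16-sh1 and 1.47 with CDK16-sh2, and 2.88 with DMSO, 3.25 with 1 µM and 5.63 with 5 µM. The balance of YAP1 and WWTR1 mRNA thus moved toward WWTR1 in the CDK16-sh2 library and toward YAP1 in the 5 µM library.

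TEAD factors bind DNA and recruit YAP or TAZ. TEAD1 (chr11:12674591-12944483, plus strand) was below scramble with both hairpins. It stood at 95.6 CPM with scramble, 64.5 with CDK16-sh1 and 59.8 with CDK16-sh2, log2 fold changes of -0.57 (-0.65 to -0.48) and -0.68 (-0.77 to -0.58). Without the GC trend these were -0.25 and -0.53. Once a trend on mean expression and gene length was removed, they were -0.34 and -0.58. With DMSO, 1 µM and 5 µM its levels were 50.2, 46.6 and 46.7 CPM, log2 fold changes of -0.11 (-0.18 to -0.03) and -0.10 (-0.20 to -0.01), the smallest difference of the 10 genes at 5 µM with this scaling, while scaling by library totals gave -0.79.

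TEAD4 (chr12:2959330-3040673, plus strand) was one of the least abundant of the 10 genes by count, with 269 to 944 counts per library. It stood at 21.6 CPM with scramble, 27.6 with CDK16-sh1 and 19.9 with CDK16-sh2, log2 fold changes of 0.35 (0.20 to 0.51) and -0.12 (-0.29 to 0.06). Without the GC trend the value of CDK16-sh1 was 0.01. In the Reb experiment it stood at 16.2, 13.4 and 9.94 CPM, with log2 fold changes of -0.27 (-0.41 to -0.14) and -0.70 (-0.90 to -0.51). TEAD4 was thus lower than DMSO at both doses, and the value at 5 µM ranged from -0.18 without the GC trend to -1.39 with library totals.

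CTGF (chr6:131948176-131951373, minus strand) encodes a secreted matricellular protein that promotes adhesion and fibrosis, and it is the promoter with 3 TEAD cores shown above. It stood at 333 CPM with scramble, 383 with CDK16-sh1 and 162 with CDK16-sh2. The log2 fold changes were 0.20 (0.16 to 0.24) and -1.04 (-1.09 to -0.99), so the hairpin libraries lay on opposite sides of scramble, although the value of CDK16-sh1 was -0.03 once a trend on mean expression and gene length was removed. With Reb, CTGF was the gene of the 10 with the largest difference at 1 µM. It stood at 429 CPM with DMSO, 194 with 1 µM and 227 with 5 µM. The log2 fold change was -1.15 (-1.18 to -1.11) at 1 µM, where 1.28% of all genes lay at or below it, and -0.92 (-0.96 to -0.88) at 5 µM, where 28.9% did. CTGF was thus below DMSO at both doses and no lower at the higher dose with TMM scaling, while in RPKM it was lowest at 5 µM.

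CYR61 (chr1:85580761-85583962, plus strand), a related secreted protein of the same CCN family that binds integrins, did not follow CTGF. It stood at 926 CPM with scramble, 1600 with CDK16-sh1 and 873 with CDK16-sh2, log2 fold changes of 0.78 (0.76 to 0.81) and -0.09 (-0.11 to -0.06). It was the gene of the 10 that stood highest above scramble with CDK16-sh1, and close to scramble with CDK16-sh2 with TMM scaling, where CTGF was past 2-fold lower. The CYR61 value of CDK16-sh2 was -0.28 with library totals and -0.43 without the trend on expression and length. With Reb its levels were 744, 442 and 196 CPM, and its log2 fold changes -0.75 (-0.77 to -0.73) at 1 µM and -1.92 (-1.97 to -1.88) at 5 µM. The ratio of CYR61 to CTGF in RPKM was 2.65 with scramble, 3.97 with CDK16-sh1 and 5.13 with CDK16-sh2, above the control with both hairpins, and 1.65 with DMSO, 2.17 with 1 µM and 0.821 with 5 µM.

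ANKRD1 (chr10:90912096-90921276, minus strand), a nuclear ankyrin repeat protein known from stressed heart muscle and one of the most YAP-responsive genes, stood at 603 CPM with scramble, 674 with CDK16-sh1 and 265 with CDK16-sh2. Its log2 fold changes were 0.16 (0.13 to 0.19) and -1.18 (-1.23 to -1.14). The first was -0.07 without the trend on expression and length. With DMSO it stood at 707 CPM, with 1 µM at 581 and with 5 µM at 216, log2 fold changes of -0.28 (-0.31 to -0.26) and -1.71 (-1.75 to -1.67). At 5 µM, 13.9% of all genes lay at or below its value.

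AMOTL2 (chr3:134355874-134375479, minus strand) encodes an angiomotin-like scaffold that binds YAP and holds it at junctions. Its levels were 248 CPM with scramble, 136 with CDK16-sh1 and 178 with CDK16-sh2, so it was the only one of the 6 target genes that was lower with CDK16-sh1 than with CDK16-sh2. The log2 fold changes were -0.87 (-0.92 to -0.81) and -0.48 (-0.53 to -0.42), and -1.10 with CDK16-sh1 after the GC trend was removed, which is past 2-fold. With Reb it stood at 133, 84.0 and 32.7 CPM. Its log2 fold changes were -0.66 (-0.71 to -0.61) at 1 µM and -2.02 (-2.12 to -1.92) at 5 µM, a level 75.4% below DMSO with 9.91% of all genes at or below it. This was the lowest value of the 10 genes under the 5 scalings, but ANKRD1 (-1.89) and CYR61 (-1.78) were lower than AMOTL2 (-1.59) without the GC trend, and CYR61 (-2.68) and ANKRD1 (-2.54) lower than AMOTL2 (-2.22) without the trend on expression and length.

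LATS2 (chr13:20973032-21061547, minus strand) encodes the kinase that phosphorylates YAP and TAZ. It stood at 34.7 CPM with scramble, 29.6 with CDK16-sh1 and 13.4 with CDK16-sh2, log2 fold changes of -0.23 (-0.36 to -0.10) and -1.36 (-1.55 to -1.19), and only 3.67% of all genes lay at or below the latter. In the Reb experiment it was, with TMM scaling, the only one of the 10 genes on opposite sides of DMSO beyond counting error at the tested doses. It had 1023 counts with DMSO, 623 with 1 µM and 1273 with 5 µM, or 17.5, 10.5 and 47.1 CPM. The log2 fold changes were -0.74 (-0.89 to -0.59) and 1.42 (1.30 to 1.54). The second stayed above 0 under all 8 alternatives, from 0.72 to 1.65, but was below 2-fold with library totals. LATS2 had more raw counts at 5 µM than with DMSO although the library was smaller. The RPKM ratio of LATS2 to AMOTL2 was 0.142 with DMSO, 0.134 with 1 µM and 1.54 with 5 µM, and 0.150, 0.233 and 0.0810 in the scramble, CDK16-sh1 and CDK16-sh2 libraries.

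AJUBA (chr14:22971174-22982642, minus strand) encodes a LIM protein that binds LATS kinases and restrains them. It stood at 209 CPM with scramble, 245 with CDK16-sh1 and 96.8 with CDK16-sh2, log2 fold changes of 0.23 (0.18 to 0.28) and -1.11 (-1.18 to -1.04). In the Reb experiment its levels were 125, 117 and 40.0 CPM, with log2 fold changes of -0.09 (-0.14 to -0.04) at 1 µM and -1.64 (-1.73 to -1.55) at 5 µM. AJUBA was thus close to its control with CDK16-sh1 and 1 µM and well below it in the other treated libraries. ANKRD1 was similar, but at 1 µM it stood at -0.28, below the lower quartile of all genes (-0.23). Of the 10 genes AJUBA and ANKRD1 were the closest pair, at a Euclidean distance of 0.23 over the 4 log2 fold changes, a description over comparisons that share controls.

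**Figure D4:**
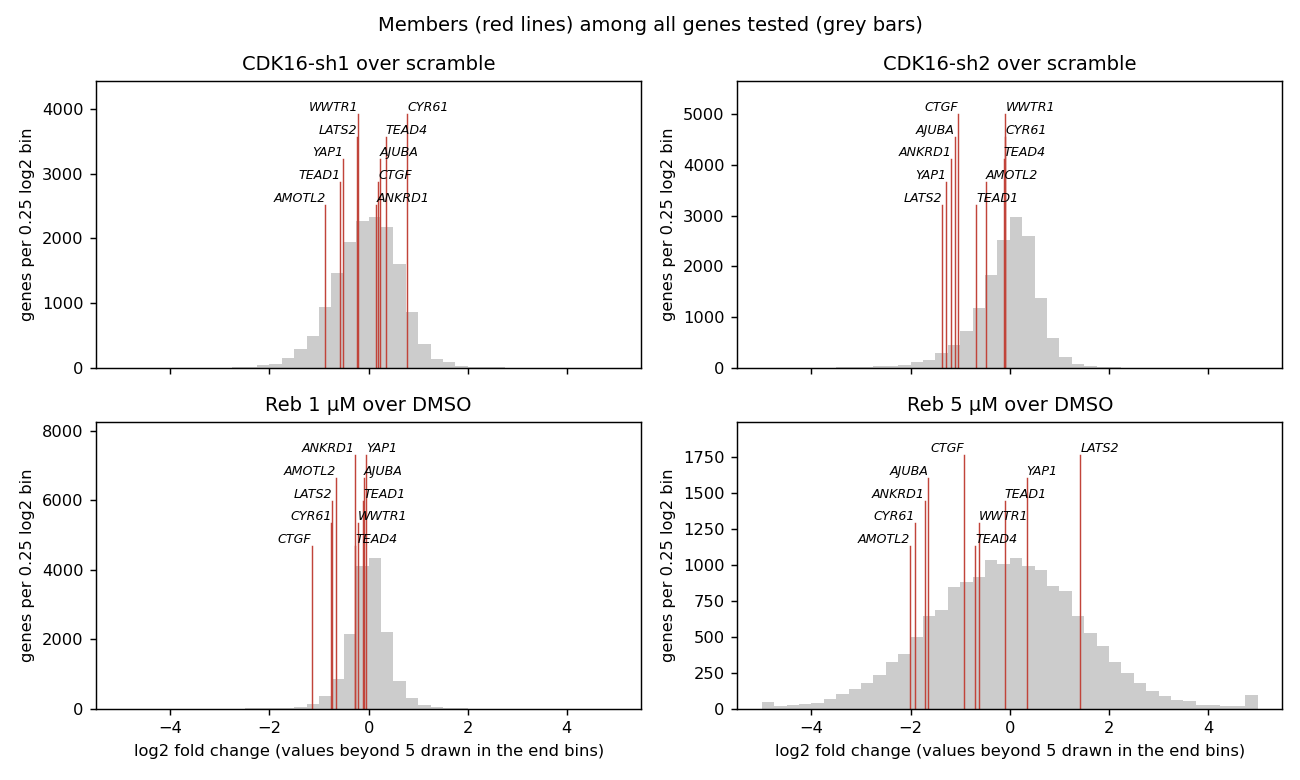
Log2 fold changes of all genes tested (grey, genes per bin of 0.25) in the 4 treated libraries, with a red line at each of the 10 genes. The grey distribution is far wider at 5 µM, where the middle 50% of genes lie between -1.10 and 0.94, than at 1 µM, where they lie between -0.23 and 0.22.

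The treated libraries were also compared directly, which does not use the control. CDK16-sh2 was below CDK16-sh1 for 8 of the 10 genes beyond counting error and above it for AMOTL2 and WWTR1, of which WWTR1 turned to -0.05 with library totals and -0.07 without the GC trend. The log2 ratios were -1.35 for ANKRD1, -1.34 for AJUBA, -1.24 for CTGF and -1.13 for LATS2, all past 2-fold, then -0.87 for CYR61, -0.78 for YAP1, -0.47 for TEAD4 and -0.11 for TEAD1, and 0.39 (0.33 to 0.45) for AMOTL2 and 0.12 (0.01 to 0.23) for WWTR1. These 4 of the 10 genes at least 2-fold lower, and 0 higher, compare with 8.68% of all genes tested lower and 6.53% higher. Between the doses, 5 µM was at least 2-fold below 1 µM for AJUBA (-1.55), ANKRD1 (-1.43), AMOTL2 (-1.36) and CYR61 (-1.17), and above it by 2.16 (2.02 to 2.30) for LATS2. Of all genes, 25.8% were at least 2-fold lower and 22.8% higher between the doses. With TMM scaling the other ratios were between -0.43 for TEAD4 and 0.39 for YAP1, with 0.00 (-0.09 to 0.10) for TEAD1 and 0.23 (0.18 to 0.27) for CTGF, and with library totals YAP1 stood at -0.35, TEAD1 at -0.74 and CTGF at -0.51.

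Across genes, both treated libraries of an experiment were taken as 1 group against its control in edgeR's quasi-likelihood test (Benjamini-Hochberg adjusted), so the spread was how far the hairpins, or the doses, lay apart. It called 0 of the 10 genes in either experiment (adjusted p = 1 for each) and none had an unadjusted p under 0.05. Of all genes it called 0% lower and 0% higher in the knockdown experiment, with 382 genes at an unadjusted p under 0.05, and 0.00639% lower and 0.0703% higher with Reb. DESeq2's Wald test on the same groups also called 0 of the 10 in both experiments, and 0 genes in the knockdown experiment, where 233 had an unadjusted p under 0.05.

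With dose as a linear term on log2(dose + 1), edgeR's quasi-likelihood test called 3 of the 10 genes lower and 1 higher. These were AMOTL2 (fitted log2 fold change -2.04 at the top dose, adjusted p = 0.0141), CYR61 (-1.92, adjusted p = 0.0332), AJUBA (-1.73, adjusted p = 0.0483) and LATS2 (1.55, adjusted p = 0.0344). ANKRD1 (-1.78) missed the threshold at an adjusted p of 0.0607, and CTGF (-0.83) had an adjusted p of 0.323. This fit called 11.1% of all genes lower and 13.3% higher. It has 1 residual degree of freedom and treats the departure of 3 libraries from a straight line as the spread, so it is no replicate check. LATS2 stood below DMSO at 1 µM (-0.74) and above it at 5 µM (1.42), so its values did not follow a straight line.

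Upstream of YAP and TAZ, 14 Hippo kinases and adaptors were measured. With CDK16-sh1, 2 of 14 were at least 2-fold lower and 0 higher (median log2 fold change -0.50), against 6.86% and 4.33% of all genes, and with CDK16-sh2 also 2 and 0 (median -0.31), against 7.62% and 2.2%. STK3, which encodes the kinase MST2, had 435, 183 and 249 counts with scramble, CDK16-sh1 and CDK16-sh2, log2 fold changes of -1.51 and -0.69. TAOK1, a kinase that activates MST1/2, stood at -1.10 and -1.28. FRMD6, a membrane adaptor upstream of the kinases, had 3834, 3139 and 978 counts and stood at -0.56 and -1.86. With 1 µM Reb 0 of 14 were past 2-fold in either direction (median 0.09), where 1.92% of all genes were lower and 1.28% higher.

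With 5 µM, 1 of the 14 was lower and 2 were higher (median 0.26), against 27.2% and 23.6% of all genes. LATS1, the paralogue of LATS2, had 732 counts with DMSO, 817 with 1 µM and 2573 with 5 µM, log2 fold changes of 0.13 and 2.92. NF2, which encodes Merlin, had 670, 710 and 1288 counts and stood at 0.06 and 2.05. LATS1 and NF2 both had more raw counts at 5 µM than at 1 µM or in DMSO, as LATS2 had. Whether NF2 mRNA gives a working protein in these cells was not tested. TAOK3 had 21758, 22722 and 1901 counts and stood at 0.04 and -2.41.

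Among 10 other TEADs and binding partners of YAP and TAZ, 9 were tested in the knockdown experiment and 8 with Reb. VGLL1 did not pass the filter on low counts, and AMOT was not analysed in the Reb experiment. With CDK16-sh1, 1 of 9 was at least 2-fold lower and 0 higher (median log2 fold change 0.02), against 6.86% and 4.33% of all genes. It was AMOT, the founding angiomotin, with 266 counts in scramble and 101 in CDK16-sh1, at -1.65 and with CDK16-sh2 at -1.09. With CDK16-sh2, 3 of 9 were lower and 0 higher (median -0.75), against 7.62% and 2.2%, among them the TEAD cofactor VGLL3 (-1.35) and the angiomotin relative AMOTL1 (-1.14), which stood at -0.33 and 0.02 with CDK16-sh1. With 1 µM, 0 of 8 were past 2-fold (median -0.03), against 1.92% and 1.28%. With 5 µM, 3 of 8 were lower and 3 higher (median -0.47), against 27.2% and 23.6% of all genes. TEAD3 stood at -1.74 and TEAD2 at -1.14, and VGLL4, which competes with YAP for TEAD, at 2.37, with 542, 578 and 1306 counts over DMSO, 1 µM and 5 µM. VGLL3 stood at 1.42 there, and the remaining genes past 2-fold, WTIP (-1.60) and PTPN14 (1.16), were named after their values were seen.

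Of 16 other YAP and TAZ target genes, 2 were at least 2-fold lower and 1 higher with CDK16-sh1 (median log2 fold change -0.27), against 6.86% and 4.33% of all genes, and 5 lower and 0 higher with CDK16-sh2 (median -0.58), against 7.62% and 2.2%. IGFBP3, a secreted binder of insulin-like growth factors, had 1815 counts with scramble, 2928 with CDK16-sh1 and 238 with CDK16-sh2, log2 fold changes of 0.41 and -2.81, so the hairpins lay on opposite sides. TGFB2, a ligand of the TGF-beta family, stood at -0.82 and -1.57, the matrix protein CCDC80 at -1.01 and -1.32, and the membrane protein CRIM1 at -1.54 and -0.65. With 1 µM Reb, 1 was lower and 0 higher (median 0.01), against 1.92% and 1.28%. With 5 µM, 3 of 16 were lower and 2 higher (median -0.14), against 27.2% and 23.6% of all genes. GADD45A, a stress-induced growth arrest gene, had 3759 counts with DMSO, 5618 with 1 µM and 20283 with 5 µM, log2 fold changes of 0.56 and 3.54, and IGFBP3 stood at 0.66 and 1.53. CRIM1 stood at -0.34 and -1.15. Other genes past 2-fold, also named after their values were seen, were NUAK2 with CDK16-sh1 (1.06) and 1 µM (-1.14), F3 (-1.48) and ASAP1 (-1.03) with CDK16-sh2, and RBMS3 (-2.10) with 5 µM.

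How counts were scaled mattered most at 5 µM. Scaling by library totals moved the median of all genes there by -0.68 on the log2 scale, RPKM by -0.64, and totals without mitochondrial transcripts by -0.53. Under each of these, 7 of the 10 genes instead of 4 were at least 2-fold lower and 0 instead of 1 higher, and of all genes 6792 instead of 4254 were lower and 1835 instead of 3695 higher with library totals. Scaling by totals moves all genes of a library alike, so the order of the 10 genes does not depend on it. With CDK16-sh2 the median moved by -0.19 with library totals, and 5 of the 10 genes were lower under each scaling, including totals without mitochondrial transcripts. Of all genes, 1701 instead of 1166 were then lower and 152 instead of 336 higher with library totals, while 970 and 449 were with the GC trend removed and 902 and 467 with the trend on expression and length removed. At 1 µM, 263 and 257 genes were past 2-fold with library totals, 250 and 275 with totals without mitochondrial transcripts, and 300 and 200 with TMM. The part of the high mitochondrial share itself was not tested beyond this.

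**Figure D5:**
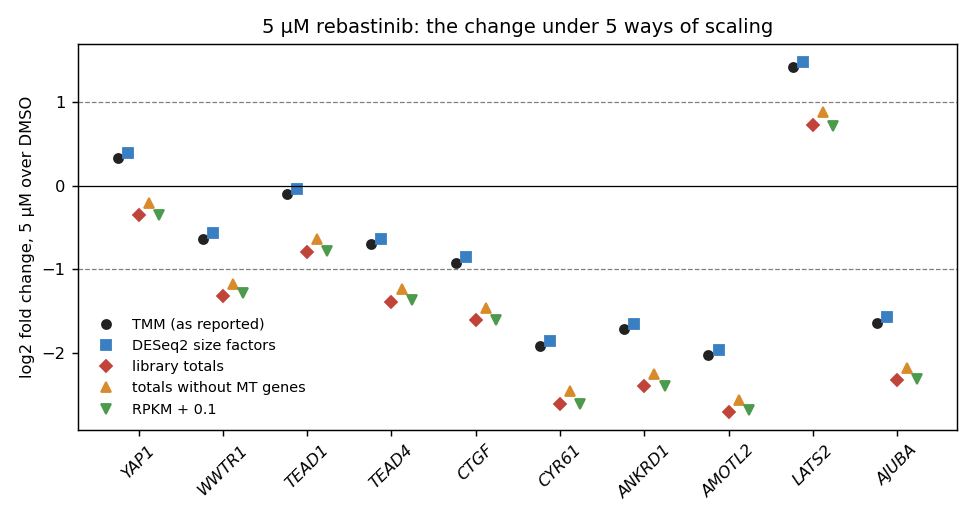
Log2 fold change of the 10 genes at 5 µM Reb against DMSO under 5 ways of scaling, with dashed lines at 2-fold. The scalings shift all genes together, YAP1 crosses 0 (0.34 with TMM, -0.35 with library totals), and LATS2 stays above 0 and AMOTL2 stays lowest under each.

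The log2 fold changes were related to GC content across genes. Pearson's r of log2 fold change and GC content, over the 99.1% of genes tested with a known GC content, was 0.44 with CDK16-sh1, 0.12 with CDK16-sh2, -0.30 with 1 µM and -0.20 with 5 µM. The 10 genes range from 40.9% GC in WWTR1 to 60.4% in TEAD4, and the CDK16-sh1 values of these moved to 0.13 and 0.01 when this trend was removed. Those of YAP1 (-0.27), TEAD1 (-0.25), CTGF (0.14), ANKRD1 (0.40), AMOTL2 (-1.10) and AJUBA (0.12) also left their counting intervals. The values of CYR61 and LATS2 did not. Genes of other symbols overlap exons of YAP1, WWTR1 and CTGF on the opposite strand and of AMOTL2 and AJUBA on the same strand, with 0.698% to 16.0% of the counts of the gene they overlap, and whether the counting used strand is not stated.

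Side by side, the controls differed too. In RPKM, DMSO cells against scramble cells stood lower by a log2 difference of -0.85 for LATS2, -0.79 for TEAD1, -0.76 for AMOTL2 and -0.61 for AJUBA, and higher by 0.50 for CTGF and 0.37 for ANKRD1. The other 4 genes were between -0.28 and -0.02. The tables were made separately and carry different numbers of symbols, and of 14414 genes tested in both 19.8% were at least 2-fold apart (median -0.12).

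The genes most like CTGF and CYR61 were sought among the 10463 genes whose mean reached 5 CPM in both experiments, by the Euclidean distance over the log2 fold changes with CDK16-sh1, CDK16-sh2, 1 µM and 5 µM. For CTGF, at 0.20, -1.04, -1.15 and -0.92, they were FZD2, a Wnt receptor, at a distance of 0.50, and the clone-named genes RP11-75L1.2 (0.52) and CTD-2267D19.3 (0.55). CYR61 had closer ones in RING1, a Polycomb ubiquitin ligase (0.08), RP4-781K5.2 (0.18) and STX5, a Golgi syntaxin (0.23). FZD2 stood at 0.30, -0.87, -0.69 and -0.96, and RING1 at 0.76, -0.12, -0.71 and -1.87 in the same order. These are the smallest distances among many candidates, over values of 1 library each that share controls. They describe likeness only, and shared regulation was not tested.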

How the data were processed

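mRNA profiles of 6 MDA-MB-231 libraries, 1 per condition, were used. The authors extracted total RNA, made stranded mRNA libraries, used a HiSeq X 10 sequencer, aligned the reads and derived RPKM. The submitters' processing notes name Trimmomatic, featureCounts, Subread 1.5.1 and GRCh38. The aligner and the use of strand in counting are not given in the sources used here. The deposited counts are whole-number reads per gene symbol, not normalized. The deposited RPKM values are the same counts divided by gene length and library total. In the knockdown and Reb tables, 28 and 27 symbols read as dates and match no name.

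Log2 fold changes against the own control were computed from the counts in R 4.3.3 with edgeR 4.0.16 (TMM scaling, prior count 2), over genes whose mean CPM reached 1 (15295 in the knockdown experiment and 15655 in the Reb experiment). Intervals (95%, Clopper-Pearson) come from the share that 1 library had in the counts of a pair. They cover counting error only, because each condition had 1 library. They treat counted reads as independent molecules, and the sources used here state no molecular identifiers, so the intervals may be too narrow even for counting error. With 1 library per condition, called means past 2-fold. edgeR's quasi-likelihood test took the treated libraries as 1 group (adjusted p at most 0.05 and 2-fold), and DESeq2 1.42.0 was an alternative. Functions were tested on simulated data. Alternatives were other scalings, thresholds, prior count and filter, removed trends (loess, span 0.3) on GC content or on expression and length, a dose term and a fit over all 6 libraries. GC content and gene spans came from GENCODE 29, promoter windows from RefSeq on GRCh38.p14, matched by symbol or synonym. The members and lists were chosen with earlier results of these data known. The genes named are the 10 members, CDK16, the cell line markers, from each pathway list the 2 largest falls and the 2 largest rises past 2-fold in each treated library where the mean reached 5 CPM, and the 3 genes most like CTGF and CYR61. Values of 1 gene that this rule names are not reported here. Direct comparisons of treated libraries under other scalings were added after the data were seen.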

Additional observations from a re-analysis of the deposited data

How the results depend on the processing

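Values of the 10 genes were recomputed under 8 alternatives. Of the log2 fold changes, 177 stayed within their counting interval and 143 did not. Signs turned for YAP1 at both doses, WWTR1 with both hairpins, and CTGF and ANKRD1 with CDK16-sh1. At a threshold of 1.5-fold, 1 of the 10 genes was lower and 1 higher with CDK16-sh1 (18.8% and 16.5% of all genes), 4 were lower at 1 µM (7.19%) and 7 at 5 µM (36.7%). At 4-fold, 0 were lower with CDK16-sh2 (1.09% of all genes), 0 at 1 µM (0.339%) and 1 at 5 µM (10.1%), and 0 were higher at 5 µM (8.13%). Removing the GC trend gave 1 lower with CDK16-sh1, where 722 of all genes were lower. Library totals, totals without mitochondrial transcripts and RPKM with 0.1 added each gave 7 lower and 0 higher at 5 µM. Of all genes, 6792, 6188 and 6490 were then lower and 1835, 2138 and 1734 higher, in that order. The dose term called 4 of the 10 genes instead of 0. Of all genes, the test of both doses called 1 lower and 11 higher, DESeq2 4 and 13, no filter 0 and 3, a fit over all 6 libraries 0 and 0, and the dose term 1744 and 2088. Without the filter, 2730 and 2172 genes were past 2-fold lower and higher with CDK16-sh1 (1049 and 663 with it), 3222 and 1897 with CDK16-sh2 (1166 and 336), 2267 and 2440 at 1 µM (300 and 200), and 8286 and 8070 at 5 µM (4254 and 3695). The list counts were recomputed only with DESeq2 size factors, library totals and totals without mitochondrial transcripts. They were not recomputed with the GC trend or the trend on expression and length removed. Of these list counts, 64 kept within 1.5 times and 8 did not, all with library totals, including or leaving out mitochondrial transcripts. With them included, 4 of 14 Hippo kinases and adaptors were lower with CDK16-sh2, where 1701 of 15295 genes were. At 5 µM, 3 of the 14 were lower, 1 of 8 TEADs and partners was higher, and 6 of 16 other targets were lower and 1 higher. Of all 15655 genes, 6792 were then lower and 1835 higher. With them left out, 2 of the 14 were lower, 1 of the 8 was higher and 1 of the 16 was higher at 5 µM. Of all genes, 6188 were then lower and 2138 higher. In comparisons added after the data were seen, 5 of the 10 genes were at least 2-fold lower with CDK16-sh2 than with CDK16-sh1 with library totals (12.1% of all genes), and 6 with 5 µM than with 1 µM (44.6%). No paired analysis was possible because each condition had 1 library, which also means that no library could be left out. The causes of these shifts were not tested.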
